A study of Mus musculus with 6 samples.

Results

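Most proteins of a mitochondrion are made in the cytosol and have to be carried across its membranes, folded, cleaved and kept in repair. The set described here holds 47 genes of that machinery in splenic T follicular helper (Tfh) cells with and without the coactivator Bob1: every gene whose symbol is Timm or Tomm followed by a digit (12 and 10 genes), and 25 genes listed by name. They were taken from the 26211 gene names of the study's comparison table, of which 24208 could be placed on the genome. The listed genes cover the matrix chaperones, the matrix proteases and the processing peptidase, the prohibitins, the factors that copy and transcribe mitochondrial DNA (mtDNA), the GTPases that fuse and divide the organelle, and 3 nuclear regulators. The rule uses names only and no measured value.

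In FoxP3GFP/DTR CD4Cre/+Bob1fl/fl mice (Bob1KO), a Cre recombinase driven by *Cd4* regulatory elements deletes the floxed *Pou2af1* gene, which encodes Bob1. The deletion therefore reaches CD4-expressing T cells in general and is not limited to Tfh cells. The control mice, FoxP3GFP/DTR CD4+/+Bob1fl/fl (WT), carry the same floxed alleles without Cre, and both groups share a FoxP3 reporter, which marks regulatory T cells with GFP. All mice had received 100 µg of NP-CGG, a hapten coupled to a carrier protein, in complete Freund's adjuvant into the peritoneum, and the spleens were taken on day 7. GFP-CD3+CD4+CXCR5+PD-1+ cells were sorted and 3 libraries per group were sequenced, each from an experiment with several mice. The age of the mice was not among the labels used here. Levels are FPKM, the fragments of a transcript relative to its length and to all mapped fragments, which set genes of different length on 1 scale.

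The deleted gene followed the labels. *Pou2af1* had 1.16, 0.237 and 0.317 FPKM in the Bob1KO libraries 1, 2 and 3, against 46.1, 32.5 and 34.4 FPKM in the WT libraries 1, 2 and 3, a log2 fold change of -4.65 (SE 0.26, limma, adjusted P = 0.0032). The Tfh markers *Cd3e*, *Cd4*, *Cxcr5*, *Pdcd1*, *Icos*, *Bcl6*, *Il21*, *Sh2d1a*, *Tox2* and *Cd200* summed to 2404 to 3162 FPKM in Bob1KO and 2255 to 3215 FPKM in WT libraries, and each was present in every library. *Cd4* was higher in every Bob1KO library, with 466, 414 and 443 FPKM, against 379, 357 and 300 FPKM in WT. So was *Cd200*, with 68.9, 72.2 and 63.6 FPKM in Bob1KO, against 57.0, 47.7 and 62.2 FPKM in WT. For the other Tfh markers the groups overlapped. Of 7 matched B cell markers, 4 stayed under 1 FPKM in every library, *Ms4a1* and *Pax5* among them. *Cd22* was the highest, with 44.9, 25.0 and 40.2 FPKM in Bob1KO, against 32.8, 17.8 and 18.1 FPKM in WT, and made up most of a sum of 27.2 to 52.9 FPKM in Bob1KO and 22.9 to 38.7 FPKM in WT. None of 9 matched myeloid markers stayed under 1 FPKM throughout. Their sum lay between 338 and 4385 FPKM in Bob1KO and between 713 and 1160 FPKM in WT libraries, and was highest in Bob1KO library 1 and lowest in Bob1KO library 2. In Bob1KO library 1 most of it came from *S100a8*, *S100a9* and *Ngp*, at 2027, 1434 and 591 FPKM, against 35.5, 24.1 and 10.1 FPKM in Bob1KO library 2. *Cebpb* went the other way, with 135 FPKM in Bob1KO library 1 and 178 FPKM in Bob1KO library 2. The part of the myeloid markers in the values below was not tested, and the set was refitted without Bob1KO library 1. NK and CD8+ T cell markers summed to 101 to 149 FPKM in Bob1KO and 109 to 164 FPKM in WT. Most of this was *Nkg7*, and *Ncr1* and *Cd8a* stayed under 1 FPKM in every library. *Prf1* was lower in every Bob1KO library, with 0.907, 1.84 and 1.16 FPKM, against 2.78, 2.56 and 3.06 FPKM in WT, and the groups overlapped for the other markers of this list. Of 6 regulatory T cell markers 5 were matched, without *Foxp3*. They summed to 145 to 195 FPKM in Bob1KO and 135 to 215 FPKM in WT, mostly from *Ctla4* and *Ikzf2*. *Gpr83* had 3.57, 3.58 and 3.53 FPKM in Bob1KO, against 6.79, 6.02 and 7.38 FPKM in WT, and the groups overlapped for the other matched markers of this list. Erythroid markers summed to 5.90 to 14.6 FPKM in Bob1KO and 2.78 to 12.6 FPKM in WT. The files give no read counts or transcript lengths, so the depth of the libraries is unknown. The mouse numbers behind each library do not enter the tests. Their P values judge the difference between the groups against the spread between the 3 libraries of a group. In limma this spread is moderated with a trend over all genes.

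The import route has a fixed order, which the account below follows. Precursor proteins dock at receptors of the TOM complex in the outer membrane and pass its channel. Small chaperones carry some of them across the space between the membranes, and the TIM23 and TIM22 complexes of the inner membrane take over. TIM23 passes proteins with a cleavable presequence on to the matrix, pulled by the heat shock protein encoded by *Hspa9*, whereas TIM22 inserts carriers into the inner membrane. In the matrix the presequence is cut off and the chaperonin folds the product. The mtDNA itself encodes only a handful of respiratory chain subunits and the RNA to make them, so that its upkeep depends on imported enzymes. T cells increase their mitochondrial mass when they are activated.

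All 47 genes were found in all 6 libraries and 45 had a mean of at least 1 FPKM, the filter for testing. The exceptions were *Tomm20l*, which is listed at 0 in every library, and *Timm8a2*, whose highest value was 0.246 FPKM. The spans of 12 members overlap that of another gene, and those described in full are named as such. The tested members ranged 34.2-fold in level, between a mean of 4.69 FPKM for *Tfb1m* and 160 FPKM for *Tomm6*, with a median of 30.2 FPKM, against 15.3 FPKM for all 10077 genes tested.

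**Figure D1:**
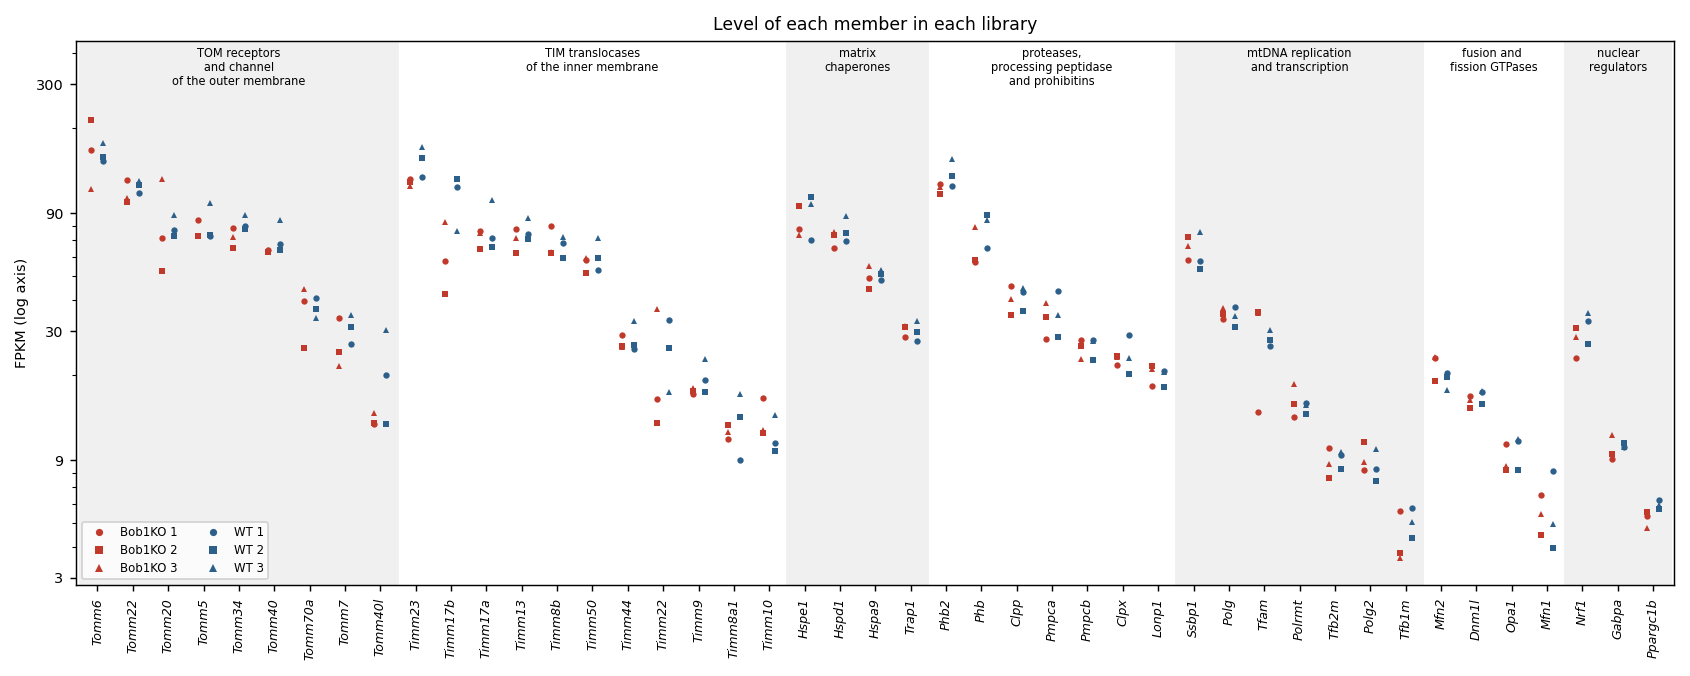
FPKM (log axis) of the 45 tested members in the Bob1KO libraries (red) and the WT libraries (blue), grouped by role and ordered by mean level, with 1 point per library and the symbol giving the replicate number. Levels run between 4.69 FPKM for *Tfb1m* and 160 FPKM for *Tomm6* on average, and red and blue points overlap for all members but *Timm23* and *Ppargc1b*.

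No member passed the test. Of the 45 tested members 0 were called at an adjusted P of 0.05 by limma, where 2 of all 10077 genes, 0.0198%, were. The smallest adjusted P of a member was 0.91. At an unadjusted P of 0.05, 1 member was lower in Bob1KO and 0 were higher, against 2.17% and 3.21% of all genes. The groups did not overlap for 2 members that were lower in Bob1KO and 0 that were higher, against 4.85% and 5.88% of all genes. These member counts are close to or under the background of the whole table. In sorted bulk cells, less RNA per cell and fewer cells that express a gene cannot be told apart.

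Most differences were small and most pointed the same way. The log2 fold change (Bob1KO minus WT, on log2(FPKM + 1)) was below 0 for 35 of 45 members, or 77.8%, against 50.6% of all genes, and for 36 members after median scaling and 34 after quantile normalization of the libraries. The median over the members was -0.076, against -0.0029 over all genes, and 43 of 45 members lay within 0.3 of 0. With a filter at a mean of 5 FPKM the median was -0.075 over the members and -0.014 over all genes. The members had a higher median level than all genes, and no background of a like level was taken. The 95% confidence interval of the difference stayed within 1 log2 unit, that is within 2-fold, for 42 members and within 0.5 for 24. It reached beyond 1 for *Timm17b*, *Tomm40l* and *Timm22*, and included 0 for 44 members. A 2-fold difference of most members therefore lay outside their intervals.

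**Figure D2:**
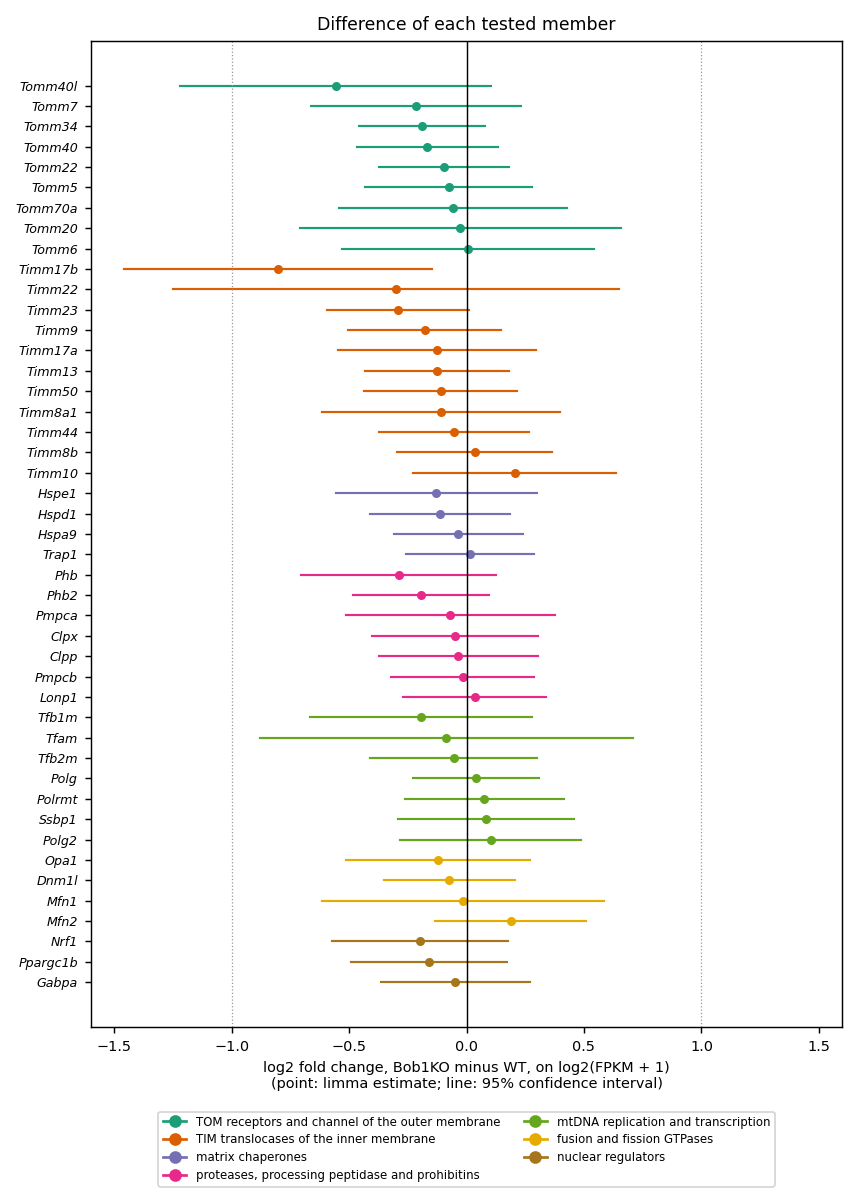
The log2 fold change of each tested member, Bob1KO minus WT, with its 95% confidence interval from limma, coloured by role. Points left of 0 (35 of 45) are lower in Bob1KO, only the interval of *Timm17b* leaves out 0, and dotted lines mark 1 log2 unit.

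Single libraries moved the size of these differences. WT library 3 held the highest value of the 6 for 19 of 45 members and the lowest for 1, and over all genes it held the highest for 26.9%. Bob1KO library 2 held the lowest for 15 members and over all genes for 20.0%. The median deviation of the members from their mean over the 6 libraries was -0.049, -0.11 and -0.017 in the Bob1KO libraries 1, 2 and 3, against 0.010, -0.073 and 0.16 in the WT libraries 1, 2 and 3. Over all genes the same medians were 0.018, -0.038 and 0.013 in Bob1KO and 0.012, -0.062 and 0.054 in WT. By these medians the 2 groups overlapped, since Bob1KO libraries 1 and 3 sat above WT library 2. Between libraries of the same number the members were lower in Bob1KO in all 3 pairs, by differences of -0.060, -0.034 and -0.18, where all genes gave 0.0057, 0.024 and -0.041, and no test was made of these medians. Without WT library 3 the median log2 fold change of the members was -0.043 with 27 of 45 below 0, against a median of 0.022 over all genes, and without Bob1KO library 2 it was -0.040 with 32 below 0, against 0.011. Without WT library 2 it was -0.13 with 40 below 0, against -0.030 over all genes. The median of all genes thus moved the same way as that of the members in these 3 refits. Without Bob1KO library 1, the library with the highest sum of myeloid markers, the median was -0.11 with 33 below 0, against -0.012 over all genes. Single members were less steady in that refit, where 6 changed sign and 24 others moved by more than 1.5 times, with no adjusted P under 0.93.

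**Figure D3:**
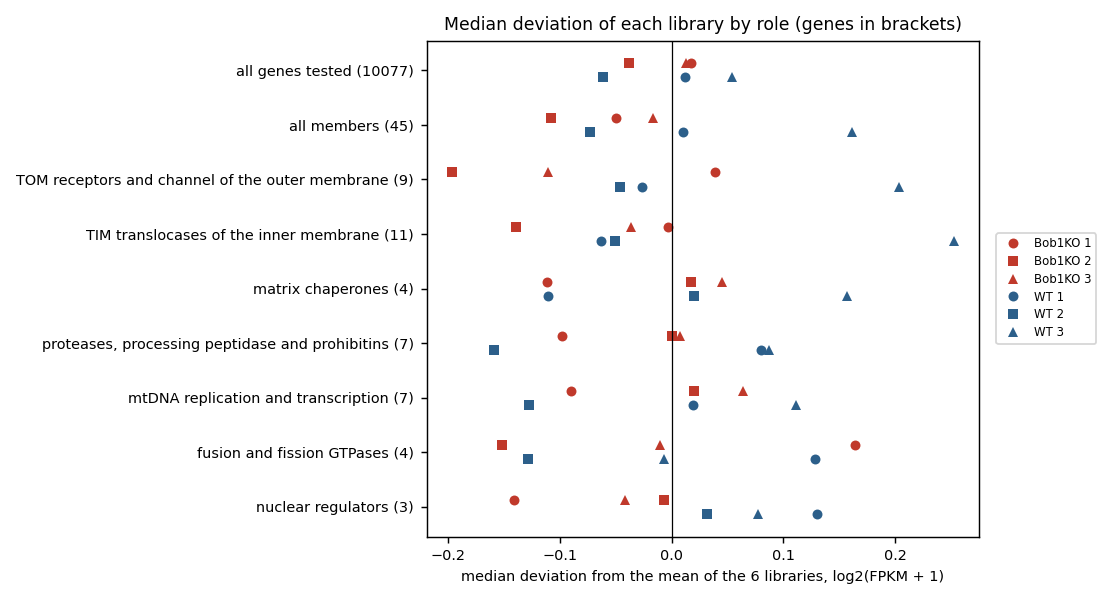
Median deviation of each library from the mean of the 6 libraries, on log2(FPKM + 1), over all genes tested, all members and each role, with Bob1KO libraries in red above WT libraries in blue and the number of genes in brackets. WT library 3 is at 0.16 over all members, 0.20 over the TOM genes and 0.25 over the TIM genes, and at 0.054 over all genes.

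Of the 10 TOM genes, 9 were tested and 8 had a log2 fold change below 0, with *Tomm6* also below 0 after median scaling and *Tomm20* above 0 after quantile normalization. The median was -0.095 and none was called. *Tomm6*, a small subunit of the complex (chr17:47686646-47688183, mm10), was the most abundant member of the whole set. It had 162, 216 and 112 FPKM in Bob1KO, against 147, 152 and 173 FPKM in WT. The WT libraries lay inside the range of the Bob1KO libraries, and the log2 fold change was 0.0061 (95% interval -0.53 to 0.54), with the sign turning to -0.0035 after median scaling. Its span overlaps those of *Usp49* and *Gm14872*, so its reads cannot be fully told apart from those of its neighbours. *Tomm22*, the central receptor that holds the complex together (chr15:79670861-79673400), had 122, 100 and 103 FPKM in Bob1KO, against 108, 117 and 122 FPKM in WT (log2 fold change -0.095, interval -0.37 to 0.18). The channel itself, *Tomm40*, had 63.7, 62.6 and 64.2 FPKM in Bob1KO and 67.5, 63.9 and 84.3 FPKM in WT (log2 fold change -0.17, interval -0.47 to 0.13). Here the 3 Bob1KO libraries were within a few FPKM of each other, WT library 2 lay among them and WT library 3 stood highest.

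*Tomm40l*, a paralogue of the channel gene (chr1:171216011-171222514), showed the largest difference among the TOM genes. It had 12.6, 12.8 and 13.9 FPKM in Bob1KO, against 19.9, 12.6 and 30.2 FPKM in WT (log2 fold change -0.56, SE 0.28, unadjusted P = 0.087, adjusted P = 0.94 by limma). The Bob1KO libraries were tight and the WT libraries spread more than 2-fold. Without WT library 3 the log2 fold change was -0.26, and without WT library 2 it was -0.86. Its span overlaps *Nr1i3*, and on the common assembly of all libraries the authors' group values were 15.5 FPKM for Bob1KO and 16.2 FPKM for WT. *Tomm20*, the receptor for presequences (chr8:126930667-126945840), had 71.5, 52.7 and 124 FPKM in Bob1KO, against 77.0, 72.6 and 88.8 FPKM in WT. The highest and the lowest of the 6 values both came from Bob1KO libraries, and the log2 fold change was -0.026 (interval -0.71 to 0.66), or 0.026 after quantile normalization. The authors' group values were 55.9 FPKM for Bob1KO and 73.6 FPKM for WT. The other TOM genes were the receptor *Tomm70a* at 25.7 to 44.4 FPKM in Bob1KO and 33.9 to 40.9 FPKM in WT, the small subunit *Tomm5* at 72.8 to 84.7 FPKM in Bob1KO and 72.7 to 98.7 FPKM in WT, and the small subunit *Tomm7* at 21.6 to 33.9 FPKM in Bob1KO and 26.5 to 34.9 FPKM in WT. The log2 fold change of *Tomm7* was -0.22, or -0.39 without Bob1KO library 1. *Tomm34*, which acts with cytosolic chaperones, lay at 65.1 to 78.4 FPKM in Bob1KO and 77.5 to 88.3 FPKM in WT. For each of these 4 genes the groups overlapped.

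The TIM genes held the largest single difference among the tested members. Of 12 genes 11 were tested, 9 had a log2 fold change below 0, the median was -0.13 and none was called. *Timm17b* encodes 1 of the alternative small channel subunits of TIM23 (chrX:7899357-7908351). It had 57.6, 42.2 and 82.7 FPKM in Bob1KO, against 115, 124 and 76.2 FPKM in WT. Bob1KO library 3 lay above WT library 3, so the groups overlapped, while both other pairs were lower in Bob1KO. Limma gave a log2 fold change of -0.80 (SE 0.28, interval -1.46 to -0.15) with an unadjusted P of 0.023 and an adjusted P of 0.91. With the replicate number as a block its unadjusted P was 0.051, so that no member then passed 0.05 before adjustment, and an exact permutation test gave P = 0.2, where 0.1 is the smallest that 3 against 3 libraries allow. The authors' group values on the common assembly were 55.7 FPKM for Bob1KO and 58.1 FPKM for WT, close to each other and, for WT, below each of the 3 per-library values. For 37 of the 45 tested members the authors' WT group value was instead above the mean of the WT libraries. The part of the separate assembly of each library in the difference of *Timm17b* was not tested.

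Its alternative, *Timm17a* (chr1:135295213-135313778), had 76.4, 64.4 and 74.7 FPKM in Bob1KO, against 71.6, 65.7 and 102 FPKM in WT, a log2 fold change of -0.13 (interval -0.55 to 0.29). In at least 1 library its row shared only 0.66 of the joint length with the gene, the lowest share of the tested members. *Timm17a* drops out where a share of 0.7 is required. The ratio of *Timm17a* to *Timm17b* was 1.33, 1.53 and 0.903 in Bob1KO, against 0.624, 0.528 and 1.34 in WT. In both groups library 3 went against the other libraries. *Timm23*, the channel protein of the complex (chr14:32180162-32201898), was the most abundant TIM gene. It had 124, 120 and 116 FPKM in Bob1KO, against 126, 150 and 167 FPKM in WT. All Bob1KO libraries lay below all WT libraries, though Bob1KO library 1 and WT library 1 differed by a few FPKM. Its log2 fold change was -0.29 (SE 0.13, interval -0.59 to 0.011, unadjusted P = 0.057, adjusted P = 0.92 by limma), and the exact permutation P was 0.1. It ranged between -0.40 and -0.20 when 1 library was left out in turn.

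The start regions of *Timm17b* and *Timm23*, the members with the lowest P values, and of *Tfam* and *Clpx*, which carry the binding motifs of 2 regulators in the set, are shown as the 250 bases before the RefSeq start site (GRCm38.p6), each on the strand of its gene and 5′ to 3′. Capitals mark the core motif of the ETS factor GABP, CCGGAAGT, or of NRF1, GCATGCGC, on either strand.
Timm17b, chrX:7899086-7899335, plus strand: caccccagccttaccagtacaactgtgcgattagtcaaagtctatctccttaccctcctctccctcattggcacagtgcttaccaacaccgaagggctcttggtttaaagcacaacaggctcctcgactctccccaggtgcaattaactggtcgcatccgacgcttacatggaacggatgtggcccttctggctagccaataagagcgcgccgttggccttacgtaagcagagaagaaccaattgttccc
Timm23, chr14:32201892-32202141, minus strand: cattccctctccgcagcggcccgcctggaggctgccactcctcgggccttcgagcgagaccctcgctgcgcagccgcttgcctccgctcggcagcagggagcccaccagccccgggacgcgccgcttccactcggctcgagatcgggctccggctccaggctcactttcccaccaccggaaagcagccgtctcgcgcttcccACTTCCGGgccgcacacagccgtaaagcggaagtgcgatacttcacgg
Tfam, chr10:71238045-71238294, minus strand: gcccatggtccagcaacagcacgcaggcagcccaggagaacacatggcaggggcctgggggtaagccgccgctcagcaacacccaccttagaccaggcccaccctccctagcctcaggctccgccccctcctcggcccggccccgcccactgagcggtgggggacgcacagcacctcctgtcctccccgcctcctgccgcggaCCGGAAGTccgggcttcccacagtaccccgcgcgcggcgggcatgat
Clpx, chr9:65294010-65294259, plus strand: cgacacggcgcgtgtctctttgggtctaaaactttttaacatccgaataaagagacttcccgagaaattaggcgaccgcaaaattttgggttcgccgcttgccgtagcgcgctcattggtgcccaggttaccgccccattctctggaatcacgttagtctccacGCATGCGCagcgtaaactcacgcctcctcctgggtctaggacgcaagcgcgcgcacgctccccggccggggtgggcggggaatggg

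The *Timm23* region held the ETS core with its first base at position -48 from the start site and that of *Tfam* at position -47. The *Clpx* region held the NRF1 core at position -86 and that of *Timm17b* held neither. Positions count from the RefSeq start. The *Tfam* span used for its levels reaches further upstream, to chr10:71238280, so most of its printed region lies inside that span. RefSeq windows of 300 bases, 250 before and 50 after a start, were found for 43 of the 47 members. The ETS core stood in 9 of these 43 genes, or 20.9%, against 4.31% of all 27025 genes with a window. This background, used for each motif, was not limited to the 10077 genes tested for their levels, whereas nearly all members were among those. The 9 were *Mfn1*, *Phb2*, *Pmpcb*, *Polg*, *Tfam*, *Timm10*, *Timm23*, *Timm8a2* and *Tomm70a*. The NRF1 core stood in 5, or 11.6%, against 3.05% of all genes, namely *Clpx*, *Opa1*, *Polrmt*, *Tfb2m* and *Timm13*. The octamer ATTTGCAT, the motif of the Oct factors with which Bob1 acts in B cells, stood in 0 of 43, against 1.97% of all genes, and the E-box CACGTG in 8, or 18.6%, against 8.09%. For the octamer, so low a background share cannot be told apart from 0 of 43. Both strands were searched for each motif, and none of the 4 letter strings contains another. These are matches of letters in a window and not measured binding.

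*Timm22*, the channel of the carrier translocase (chr11:76407143-76416292), had 16.0, 12.7 and 36.9 FPKM in Bob1KO, against 33.1, 25.6 and 17.1 FPKM in WT. Again library 3 went against the other libraries of its group, as for *Timm17b*. Its log2 fold change was -0.30 (SE 0.40, interval -1.25 to 0.65), and it was -0.0027 without Bob1KO library 2, -0.087 without WT library 1, -0.74 without Bob1KO library 3 and -0.55 without WT library 3. The authors' group values were 17.1 FPKM for Bob1KO and 18.9 FPKM for WT. *Timm50*, the receptor of TIM23 for presequences, had 58.2, 51.4 and 59.1 FPKM in Bob1KO, against 52.8, 59.3 and 71.3 FPKM in WT, and *Timm44*, which anchors the import motor, had 29.0, 26.0 and 25.9 FPKM in Bob1KO, against 25.3, 26.2 and 32.9 FPKM in WT. The groups overlapped for both. Among the small chaperones between the membranes, *Timm13* lay at 62.1 to 77.9 FPKM in Bob1KO and 70.8 to 86.2 FPKM in WT, and *Timm8b* at 62.2 to 79.9 FPKM in Bob1KO and 59.2 to 72.1 FPKM in WT. *Timm8a1* lay at 11.0 to 12.5 FPKM in Bob1KO and 8.99 to 16.7 FPKM in WT, and *Timm9* at 16.6 to 17.7 FPKM in Bob1KO and 17.1 to 23.0 FPKM in WT, with overlap for each of the 4 genes. *Timm10*, the partner of *Timm9* in the carrier chaperone, had a log2 fold change of 0.20 (interval -0.23 to 0.64), or 0.065 without Bob1KO library 1, with 16.1, 11.6 and 12.0 FPKM in Bob1KO, against 10.6, 9.78 and 13.7 FPKM in WT.

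**Figure D4:**
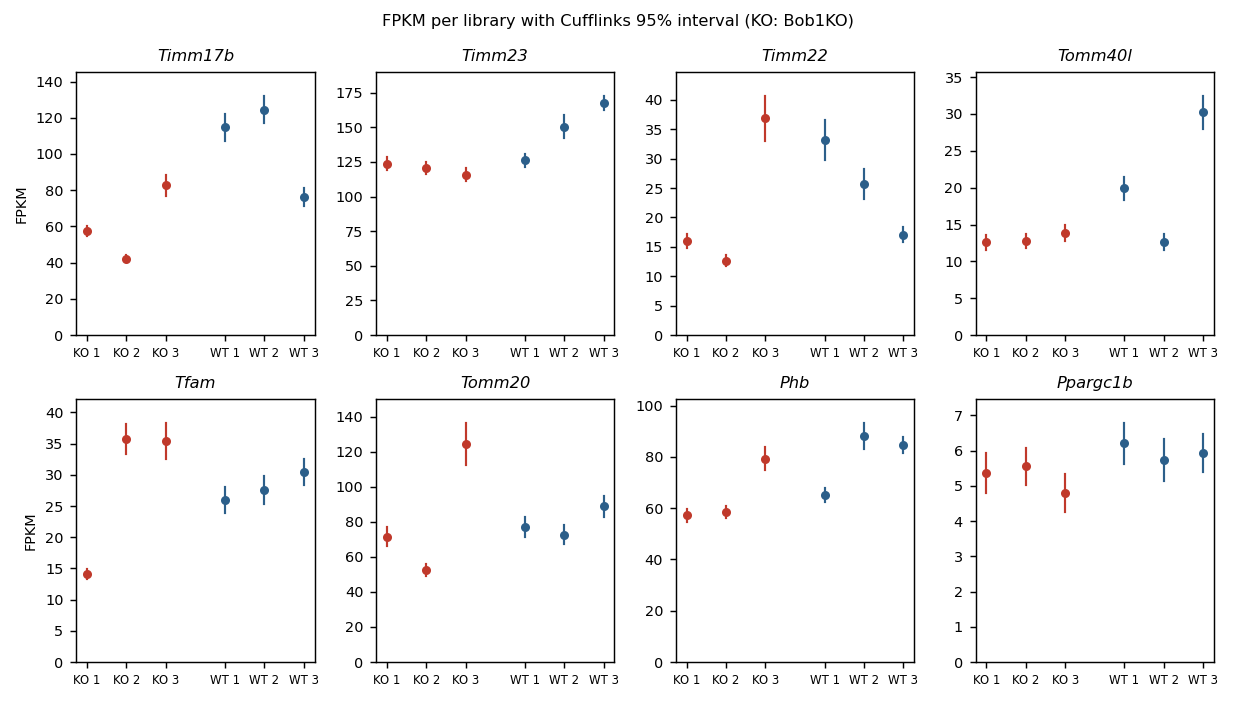
FPKM of 8 members in each Bob1KO library (red, left) and WT library (blue, right), with the 95% interval that Cufflinks gave for that library. *Timm17b*, *Timm22*, *Tomm40l*, *Tfam* and *Tomm20* differ between libraries of 1 group by far more than these intervals, and *Phb* and *Timm23* also by more than them. The panels of *Timm23* and *Ppargc1b* are the 2 in which the groups do not overlap.

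The spread within a group was wider than the Cufflinks interval for most members. For the 44 tested members with 1 row per library, the Cufflinks 95% interval reached a median of 6.59% of the value to either side, between 3.62% for *Phb2* and 17.7% for *Tfb1m*. On log2(FPKM + 1) this reach had a median of 0.090, against a median within-group SD of 0.18, and the SD was the larger of the 2 for 42 of the 44. The Cufflinks interval covers the error within a library only. Over both groups the highest of the 6 libraries was 1.39 times the lowest for the median member. It was at least 2 times the lowest for 6 members, *Tomm20*, *Tomm40l*, *Timm17b*, *Timm22*, *Tfam* and *Mfn1*, and at most 1.92 times for the others. These 6 were singled out after their values had been seen.

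The 4 matrix chaperones differed little between the groups. A log2 fold change below 0 was found for 3, with a median of -0.074 and none called. *Hspe1* and *Hspd1* encode the 2 parts of the chaperonin, Hsp10 and Hsp60, and lie head to head on chromosome 1 with 107 bases between their starts. *Hspe1* (chr1:55088132-55091307) had 77.6, 95.9 and 73.4 FPKM in Bob1KO, against 70.2, 104 and 97.7 FPKM in WT (log2 fold change -0.13, interval -0.56 to 0.30). *Hspd1* (chr1:55077835-55088024) had 64.8, 73.6 and 75.4 FPKM in Bob1KO, against 69.4, 74.9 and 87.9 FPKM in WT (log2 fold change -0.11, interval -0.41 to 0.19). The ratio of *Hspe1* to *Hspd1* stayed near 1 throughout, between 0.973 and 1.30 in Bob1KO and between 1.01 and 1.40 in WT. *Hspa9*, the import motor, had 49.4, 44.3 and 55.1 FPKM in Bob1KO, against 48.2, 50.9 and 52.9 FPKM in WT. *Trap1*, the mitochondrial Hsp90 relative, had 28.4, 31.1 and 31.5 FPKM in Bob1KO, against 27.5, 29.9 and 32.9 FPKM in WT, with a log2 fold change of 0.013 (interval -0.26 to 0.29), and its span overlaps *Dnase1*.

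Of the 7 genes of proteolysis and of the prohibitin ring, 6 had a log2 fold change below 0, with a median of -0.049 and none called. The prohibitins *Phb2* and *Phb*, which form a ring scaffold in the inner membrane, were the most abundant and had the lowest values. *Phb2* (chr6:124712336-124716950) had 119, 108 and 115 FPKM in Bob1KO, against 116, 128 and 149 FPKM in WT (log2 fold change -0.19, interval -0.48 to 0.095). *Phb* (chr11:95666957-95680773) had 57.2, 58.4 and 79.3 FPKM in Bob1KO, against 65.1, 88.3 and 84.6 FPKM in WT (log2 fold change -0.29, SE 0.18, unadjusted P = 0.15, adjusted P = 0.95 by limma). The groups overlapped for both genes. The 2 subunits of the processing peptidase were even, as *Pmpca* lay at 27.9 to 38.9 FPKM in Bob1KO and 28.4 to 43.4 FPKM in WT, and *Pmpcb* at 23.0 to 27.7 FPKM in Bob1KO and 22.9 to 27.5 FPKM in WT. So were the protease *Clpp* at 35.0 to 45.9 FPKM in Bob1KO and 36.0 to 44.9 FPKM in WT, its unfoldase *Clpx* at 21.8 to 23.8 FPKM in Bob1KO and 20.2 to 28.9 FPKM in WT, and the protease *Lonp1* at 17.9 to 21.7 FPKM in Bob1KO and 17.9 to 20.7 FPKM in WT. The log2 fold changes of these 5 genes lay between -0.069 and 0.034.

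The genes that copy and transcribe mtDNA were mixed. Of 7 genes 3 had a log2 fold change below 0 and 4 above, with a median of 0.042 and none called, and no test set this group against the others. *Ssbp1*, the single-stranded DNA binding protein of the replication fork (chr6:40471352-40484700), had 58.0, 72.0 and 66.1 FPKM in Bob1KO, against 57.5, 53.4 and 75.5 FPKM in WT (log2 fold change 0.083, interval -0.29 to 0.46). The authors' group values for it were lower, 38.4 FPKM for Bob1KO and 40.9 FPKM for WT. *Polg*, the catalytic subunit of the mtDNA polymerase (chr7:79446231-79466362), had 33.4, 35.3 and 37.3 FPKM in Bob1KO, against 37.4, 31.3 and 34.4 FPKM in WT (log2 fold change 0.042, interval -0.23 to 0.31), and its span overlaps *Fanci*. Its accessory subunit *Polg2* lay at 8.24 to 10.6 FPKM in Bob1KO and 7.39 to 10.0 FPKM in WT. *Tfb1m*, a methyltransferase of mitochondrial ribosomal RNA (chr17:3519256-3557781), had 5.62, 3.77 and 3.60 FPKM in Bob1KO, against 5.74, 4.34 and 5.04 FPKM in WT (log2 fold change -0.19, interval -0.67 to 0.28), and its span overlaps *Tiam2* and *Cldn20*. Without Bob1KO library 1 its log2 fold change was -0.36. The transcription factor *Tfb2m* lay at 7.60 to 10.1 FPKM in Bob1KO and 8.28 to 9.73 FPKM in WT, and the RNA polymerase *Polrmt* at 13.5 to 18.3 FPKM in Bob1KO and 13.8 to 15.4 FPKM in WT.

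*Tfam*, which packs mtDNA and starts its transcription (chr10:71225464-71238280), depended on 1 library. It had 14.1, 35.8 and 35.4 FPKM in Bob1KO, against 26.0, 27.5 and 30.4 FPKM in WT. The WT libraries lay between Bob1KO library 1 and the other Bob1KO libraries. Over all libraries the log2 fold change was -0.086 (SE 0.34, interval -0.88 to 0.71), and without Bob1KO library 1 it was 0.34 (unadjusted P = 0.039, adjusted P = 0.93 by limma). In that library alone the row for this gene carries the gene's name, whereas in the other 5 it carries a number of the assembly. The authors' group values were 16.5 FPKM for Bob1KO and 15.7 FPKM for WT, near the value of Bob1KO library 1 and below the other 5. The part of the assembly in this gap was not tested.

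The 4 GTPases of fusion and fission showed no common shift, with 3 log2 fold changes below 0, a median of -0.043 and none called. *Mfn2*, which fuses outer membranes and tethers mitochondria to the endoplasmic reticulum (chr4:147873599-147904687), had 23.4, 18.8 and 23.5 FPKM in Bob1KO, against 20.3, 19.6 and 17.3 FPKM in WT (log2 fold change 0.19, interval -0.13 to 0.51). Its relative *Mfn1* was 2.5 to 4.9 times lower in level and had 6.49, 4.48 and 5.43 FPKM in Bob1KO, against 8.12, 3.98 and 4.97 FPKM in WT. *Dnm1l*, the fission GTPase (chr16:16312230-16358959), had 16.4, 14.6 and 15.8 FPKM in Bob1KO, against 17.1, 15.2 and 17.2 FPKM in WT (log2 fold change -0.073, interval -0.35 to 0.21). *Opa1*, which fuses inner membranes, lay at 8.19 to 10.5 FPKM in Bob1KO and 8.18 to 10.9 FPKM in WT.

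All 3 nuclear regulators had a log2 fold change below 0, with a median of -0.16 and none called. Their median deviation from the mean of the 6 libraries was -0.14, -0.0065 and -0.042 in the Bob1KO libraries, against 0.13, 0.032 and 0.077 in the WT libraries, over these 3 genes only. *Ppargc1b*, a coactivator of mitochondrial gene expression (chr18:61298136-61400431), had 5.36, 5.55 and 4.79 FPKM in Bob1KO, against 6.20, 5.73 and 5.94 FPKM in WT. The Bob1KO libraries all lay below the WT libraries, but the closest pair differed by less than the Cufflinks interval of either, which reached a median of 9.99% to either side. The log2 fold change was -0.16 (interval -0.49 to 0.17, unadjusted P = 0.29, adjusted P = 0.95 by limma, exact permutation P = 0.1). The microRNA gene *Mir378* lies within its span. *Nrf1*, a transcription factor of nuclear genes for mitochondrial proteins (chr6:30047988-30153458), had 23.3, 30.8 and 28.4 FPKM in Bob1KO, against 32.9, 26.5 and 35.6 FPKM in WT (log2 fold change -0.20, interval -0.57 to 0.18). *Gabpa*, the DNA-binding subunit of GABP (chr16:84835124-84863779), had 9.10, 9.52 and 11.4 FPKM in Bob1KO, against 10.2, 10.6 and 10.2 FPKM in WT (log2 fold change -0.047, interval -0.36 to 0.27). Its span overlaps that of *Atp5j*.

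Other genes of the same processes were also tested. Of 71 such genes in 5 lists, 52 were matched and 47 tested, and 0 were called in either direction by limma. At an unadjusted P of 0.05, 1 was lower in Bob1KO and 0 were higher, against 2.17% and 3.21% of all genes. The groups did not overlap for 5 of 47 that were lower in Bob1KO, or 10.6%, against 4.85% of all genes, and for 2 that were higher, or 4.26%, against 5.88%. The log2 fold change was below 0 for 34 of 47, against 50.6% of all genes, with a median of -0.088, against -0.0029 over all genes. Among 15 other import and sorting genes 13 were below 0, with a median of -0.21, the lowest of the 5 lists. The 1 gene with an unadjusted P under 0.05 was *Immp1l*, a subunit of the inner membrane peptidase (chr2:105904638-105965558). It had 47.1, 44.0 and 46.5 FPKM in Bob1KO, against 54.9, 54.2 and 54.0 FPKM in WT, a log2 fold change of -0.24 (SE 0.095, unadjusted P = 0.038, adjusted P = 0.91 by limma). Both groups were tight for this gene and did not overlap. Of 10 other genes of fission, fusion and cristae 9 were below 0 with a median of -0.10, and for the other 3 lists the medians lay between -0.034 and -0.029. Among these 3, the list of other nucleoid, mtDNA and transcript genes rests on 8 tested genes of 19 listed, with 11 unmatched.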

How the data were processed

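RNA from sorted splenic Tfh cells was made into libraries with a SMART-Seq v4 kit. Per the submitters' processing notes, cutadapt 1.2.1, TopHat2 2.0.13 and Cufflinks 2.2.1 were used, with GRCm38 (mm10); the sources used here name no annotation version. The authors deposited FPKM with 95% bounds per library, on transcripts assembled in that library alone, and 1 table on a common assembly with group FPKM, the authors' own log2 fold change, its test statistic with p-value, and q-value; these 4 columns were not used.

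Rows named by the assembly held 94.072% to 95.922% of a library's FPKM, so genes were attached by position: at least 0.5 of the joint length shared, then at least 0.95 of the gene covered. Rows were summed per gene, and a row with another gene's name was never added. This gave 23448 genes in all 6 libraries, and 5 were left out for their status. The share was at least 0.9 in every library for 38 of 45 tested members. Overlapping genes cannot be told apart, and strand was not used.

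For the 10077 genes with a mean of at least 1 FPKM, log2(FPKM + 1) was fitted with limma 3.58.1 (R 4.3.3), with a variance trend and group as the only term; P values are two-sided and Benjamini-Hochberg adjusted over all genes. A fold change on this scale understates that of low genes. Same-numbered libraries deviated together (correlations 0.137, 0.145 and 0.131), so the replicate number was also used as a block. The other correlations were negative, which deviations from a group mean bring about on balance when the same-numbered ones are positive. Values in every library are given for members with an unadjusted P under 0.05 or groups that do not overlap, and in each role for the 2 most abundant members and that with the largest difference; further members were added after their values were seen. The members and lists were chosen with earlier results of these data known. A marker of the B cell list is not reported here.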

Additional observations from a re-analysis of the deposited data

How the results depend on the processing

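No member was called under any of 17 alternatives, whose smallest adjusted P for a member was 0.67, without WT replicate 2. The median log2 fold change of the members stayed below 0 in all 17, between -0.13 and -0.040 when 1 library was left out in turn, with 27 to 40 members below 0. *Pou2af1* kept its direction throughout, at -4.91 to -4.50 with 1 library left out, and missed the threshold only without both replicate 2 libraries (log2 fold change -4.60, adjusted P = 0.057). With the replicate block 0 members had an unadjusted P under 0.05, against 1 without it, and the block changed no other call of a member (adjusted P at least 0.79). Over all settings 712 of 763 recomputed member values kept their direction and 51, in 25 members, did not, all in members within 0.30 of 0; the cause was not tested. After median scaling *Tomm6* was at -0.0035 and after quantile normalization *Tomm20* at 0.026. Without both replicate 2 libraries the log2 fold changes turned to *Tomm20* 0.19, *Tomm6* -0.24, *Tomm70a* 0.17, *Timm22* 0.031, *Hspa9* 0.046, *Trap1* -0.0078, *Lonp1* -0.084, *Polg* -0.021, *Polg2* -0.081, *Ssbp1* -0.088 and *Gabpa* 0.00053. With 1 library left out in turn the ranges that cross 0 were *Clpp* -0.13 to 0.062, *Clpx* -0.16 to 0.084, *Gabpa* -0.14 to 0.012, *Hspa9* -0.11 to 0.042, *Lonp1* -0.032 to 0.12, *Mfn1* -0.20 to 0.23, *Pmpca* -0.22 to 0.081, *Pmpcb* -0.10 to 0.054, *Polg* -0.022 to 0.10, *Polrmt* -0.036 to 0.17, *Ssbp1* -0.016 to 0.23, *Tfam* -0.30 to 0.34, *Tfb2m* -0.15 to 0.036, *Timm17a* -0.25 to 0.061, *Timm44* -0.12 to 0.060, *Timm50* -0.21 to 0.0042, *Timm8a1* -0.33 to 0.076, *Timm8b* -0.082 to 0.096, *Tomm20* -0.36 to 0.25, *Tomm5* -0.15 to 0.067, *Tomm6* -0.22 to 0.25, *Tomm70a* -0.21 to 0.17 and *Trap1* -0.048 to 0.078. With 3 libraries a group and no read counts, the replicate spread limits what can be called, and shared shifts of the members were described without a test.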

Other observations

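Ratios between partner genes can be read within a library, where scaling cancels. Of 12 such ratios formed after the values had been seen, with no test and no background over other ratios, the 2 without overlap between the groups were *Timm9* over *Timm10* and *Timm23* over *Timm50*. *Timm9* over *Timm10*, the subunits of 1 carrier chaperone, was 1.03, 1.47 and 1.48 in Bob1KO, against 1.79, 1.75 and 1.68 in WT. *Timm23* over *Timm50* was 2.13, 2.35 and 1.96 in Bob1KO, against 2.39, 2.54 and 2.35 in WT, where the closest libraries were almost level. *Clpp* over *Clpx* (1.47 to 2.10 in Bob1KO and 1.49 to 1.93 in WT), *Phb2* over *Phb* (1.46 to 2.07 in Bob1KO and 1.45 to 1.79 in WT) and *Pmpca* over *Pmpcb* (1.01 to 1.69 in Bob1KO and 1.24 to 1.58 in WT) overlapped.

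The transcripts of mtDNA itself have no value per gene. Each Bob1KO library had 2 rows on the mitochondrial genome, at 258 and 119, 196 and 102, and 182 and 69.2 FPKM in libraries 1, 2 and 3, whereas each WT library had 1 row, at 283, 343 and 215 FPKM. The longer of the 2 Bob1KO rows spans nearly the same stretch as the WT row, and the other ends short of it. Since the genome is listed in 2 rows in one group and in 1 in the other, the values were not compared.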
